A study of Homo sapiens with 16 samples.

Results

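The 27 intervals described here belong to NFAT5 and 7 genes of osmolyte accumulation: AKR1B1, SLC5A3, SLC6A6, SLC6A12, SLC38A2, SGK1 and AQP1. An interval was taken when it overlapped 1 of these 8 genes or lay within 10 kb of one of their GENCODE release 44 transcript starts, which selected 27 of the 74404 intervals in the deposited table. SLC6A6 had 9 of them, SGK1 8, SLC6A12 3, AKR1B1 and SLC5A3 2 each, and NFAT5, SLC38A2 and AQP1 1 each. Protein-coding promoter intervals, meaning intervals within 1 kb of a protein-coding transcript start, numbered 17992 and serve below as the comparison for promoters.

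The data are CUT&Tag profiles of HEK293 cells, a line derived from human embryonic kidney, of the genotype eGFP-YAP. In CUT&Tag an antibody directs a Tn5 transposase to its target in nuclei, so that nearby DNA is cut, tagged and counted. All 16 libraries came from eGFP-YAP cells, either given vehicle or given sorbitol to 200 mM, and the series design states serum starvation for 1 h beforehand. The table's column names place vehicle at 0 h and sorbitol at 1 h. CTCF, the cohesin subunit RAD21, eGFP-YAP (through an antibody against GFP, labelled YAP1) and the histone mark H3K27ac were profiled in 2 vehicle and 2 sorbitol libraries each. The labels do not say whether the replicates were separate cultures, so p-values measure the spread between libraries, which may be technical. A control antibody was not analysed here, so a level is not separated from background cutting of open chromatin.

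NFAT5 (also called TonEBP) is the transcription factor that hypertonicity activates in kidney cells. It binds tonicity elements near genes whose products let a cell replace inorganic ions with organic osmolytes. AKR1B1 is aldose reductase, which makes sorbitol from glucose. SLC5A3 imports myo-inositol, SLC6A6 imports taurine and SLC6A12 imports betaine. SLC38A2 is a neutral amino acid transporter, SGK1 a kinase that acts on ion transport, and AQP1 a water channel. H3K27ac marks active promoters and enhancers, CTCF and cohesin shape chromatin loops, and YAP is a coactivator that TEAD factors bring to DNA.

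The tonicity elements are shown first, because they are the feature through which NFAT5 is known to recognise these genes. The consensus searched, on both strands, is TGGAAA followed by 2 free bases, a pyrimidine, a free base and a pyrimidine. It was present in 5 of the 27 intervals, against 8.04% of all intervals, 10.6% of protein-coding promoter intervals and 4.92% of the 35116 RefSeq promoter windows (250 bases before to 50 after a start). The interval at the SLC38A2 start held 3 matches, and 0.384% of the 1302 intervals within 10% of its width held as many. The interval at the short SGK1 transcripts held 2, as did 1.28% of 3349 intervals of like width. The start intervals of SLC5A3 and SLC6A6 and an intron of SLC6A6 held 1 each, which is common at their widths (12.8%, 18.0% and 8.99%). Each is printed 5′ to 3′ from hg38 as 30 bases on the strand that matches, with the match in capitals.
SLC38A2, chr12:46371476-46371505, plus strand: ccaggcgagTGGAAAAGTACcagccgcgcg
SLC38A2, chr12:46372727-46372756, plus strand: tagcagtacTGGAAAGGCGTtctaaggcgg
SLC38A2, chr12:46373017-46373046, plus strand: tagatagtcTGGAAAGACCCccagatgctt
SGK1, chr6:134174665-134174694, minus strand: gacgcaaagTGGAAATTTTTtgaaagtccc
SGK1, chr6:134175163-134175192, minus strand: tgagagaggTGGAAAACTACcccgggctct
SLC5A3, chr21:34073231-34073260, plus strand: aggaaggcaTGGAAAGTTCCagccggttcg
SLC6A6 start, chr3:14402564-14402593, minus strand: cctgctgggTGGAAAAATACcagctcggcc
SLC6A6 intron, chr3:14462060-14462089, plus strand: cagcaagagTGGAAAAATACcacgtcccac

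The matches at SLC38A2 lay at 1283, 32 and -258 bp from its main start, that at SLC5A3 at -333 bp and that at the SLC6A6 start at -27 bp, negative values being upstream. No match was found in the intervals of NFAT5, AKR1B1, SLC6A12 or AQP1, which says only that these letters are absent from those windows. The shorter core TGGAAA occurred in 12 of 27 intervals (44.4%), against 31.9% of all intervals and 39.2% of protein-coding promoter intervals. The AP-1 site TGACTCA occurred in 7 of 27 (25.9%), of which 4 were in SLC6A6, against 8.88% of all intervals. The TEAD core GGAATG occurred in 7 of 27, against 23.1% of all intervals. The shares for these shorter motifs were not matched for interval width, and a wider interval has more room for a match. Matches are descriptions of sequence and not sites of binding.

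Library totals were 2.84 to 4.51 M counts (M, 1e6) for CTCF, 1.19 to 2.30 M for RAD21, 2.34 to 3.82 M for eGFP-YAP and 6.54 to 8.84 M for H3K27ac. Mitochondrial intervals took a larger share with sorbitol than with vehicle in 3 targets: from 15.7% and 19.9% to 32.8% and 33.9% for CTCF, from 34.3% and 38.5% to 44.8% and 46.0% for RAD21, and from 36.5% and 38.1% to 55.4% and 57.8% for eGFP-YAP. In H3K27ac libraries the share was 1.95% to 2.08%. CPM below are counts per 1e6 on library sizes scaled by TMM, which holds most intervals near no change, and log2 fold changes are sorbitol over vehicle ± SE. Calls are adjusted p under 0.05 in edgeR's quasi-likelihood test with Benjamini-Hochberg adjustment over every tested interval of a target.

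In vehicle cells 5 of the 8 genes had at least 26.2 H3K27ac CPM per kb at their main start. H3K27ac at the interval of the main start, per kb of interval, was 73.5 ± 10.5 CPM at AKR1B1 (SD, n = 2 here and below), 65.3 ± 4.62 at NFAT5 and 64.4 ± 0.464 at SLC38A2. These 3 did not differ beyond the spread between libraries, and lay at the 88.5 to 92.9 percentile of protein-coding promoter intervals, whose median was 31.9 CPM per kb. SLC6A6 followed at 47.3 ± 0.180 and SLC5A3 at 26.2 ± 3.50 CPM per kb. SLC5A3 shares its start interval with MRPS6, a mitochondrial ribosomal protein gene, and counts cannot be divided between them. SLC6A12 and AQP1 had no interval at their main starts: the nearest lay 5617 bp and 2548 bp away, and H3K27ac in those nearest intervals never exceeded 7.19 and 2.73 CPM in a library.

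SGK1 has a main transcript that starts far upstream of its short transcripts. At the main start (chr6:134317598-134318110) H3K27ac was 4.12 ± 0.936 CPM per kb. At a distance of 142314 bp, at chr6:134174563-134175798, where short transcripts start, it was 31.0 ± 1.92. This short-transcript interval had 32.6 ± 1.22 CTCF CPM per kb and 27.9 ± 1.05 RAD21 CPM per kb. These values lay at the 95.0 and 98.0 percentile of protein-coding promoter intervals. Near other short-transcript starts of SGK1, chr6:134178326-134178633 had 31.8 ± 7.0 and chr6:134173882-134174375 had 30.6 ± 2.02 CTCF CPM per kb, which did not differ from it beyond their spread. Among the start intervals of the other genes SLC5A3 (12.4 ± 4.45) and AKR1B1 (11.4 ± 0.847) had the highest CTCF means and did not differ beyond their spread, ahead of NFAT5 (7.48 ± 0.798), SLC38A2 (5.90 ± 1.08) and SLC6A6 (4.62 ± 1.28).

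eGFP-YAP was highest at NFAT5 and SLC38A2 among the start intervals. It was 13.5 ± 0.395 CPM per kb at NFAT5 and 10.6 ± 0.529 at SLC38A2, and between 6.50 and 7.99 at SLC5A3, the short-transcript interval of SGK1, SLC6A6 and AKR1B1. The median of protein-coding promoter intervals was 6.48 CPM per kb. The plot of counts at the promoter intervals gives each library.

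**Figure D1:**
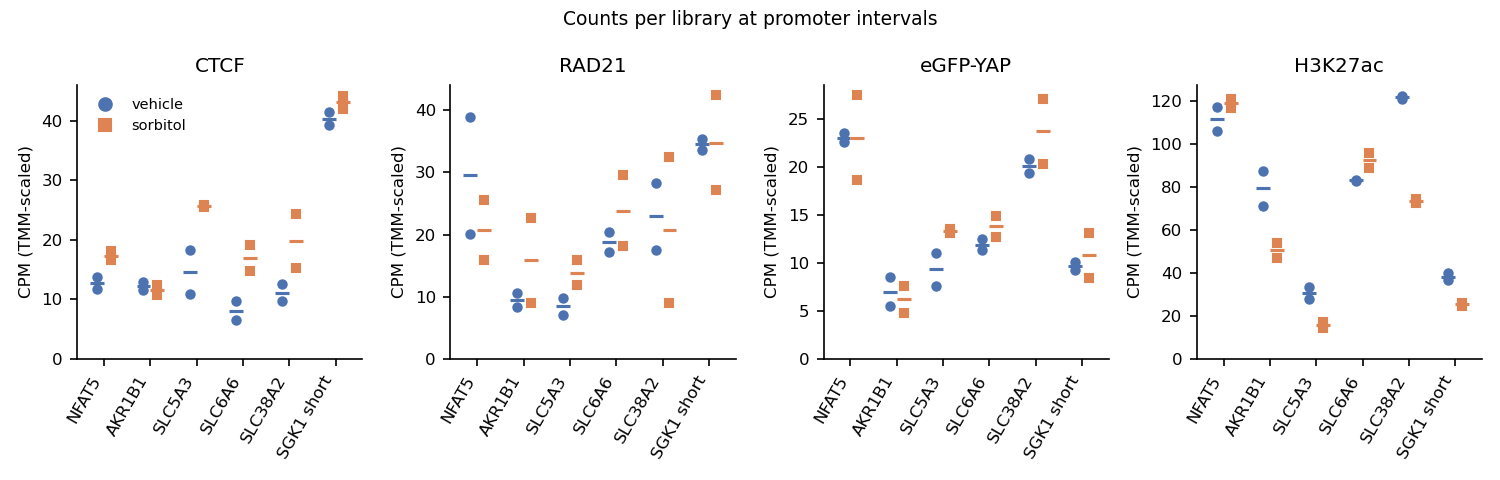
CPM on TMM-scaled library sizes (y axis, each panel from 0) in each library at 5 start intervals and at the interval of the short SGK1 transcripts (x axis), by target. Circles are vehicle and squares sorbitol libraries, and bars are the means of 2 libraries. H3K27ac separates the groups downward at AKR1B1, SLC5A3, SLC38A2 and SGK1, while the groups overlap at NFAT5.

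Sorbitol changed H3K27ac at 12 of the 27 intervals, 6 lower and 6 higher, and all 27 passed the count filter. Over all 56601 tested intervals 23.1% were called, 14.5% lower and 8.59% higher. Of the tested protein-coding promoter intervals 41.1% were called, 30.1% lower and 11% higher. The median log2 fold change of the 27 was 0.38, beside 0.02 over all tested intervals and -0.15 over protein-coding promoter intervals. The falls were at or next to 4 promoters and at an interval near SLC6A12. The rises were at intervals of at most 13.4 CPM with vehicle, 1 of them at the main start of SGK1, while the falls were at intervals of 7.90 to 122 CPM, so these ranges overlap.

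The clearest fall was at SLC38A2. Its start interval, chr12:46371217-46373102, had 121 and 122 H3K27ac CPM in the vehicle libraries and 74.4 and 72.6 with sorbitol. The log2 fold change was -0.72 ± 0.08 (adjusted p = 1.9e-09). This interval holds 3 matches to the tonicity element consensus, and a relation between matches and the fall was not tested.

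AKR1B1 fell at its start interval, chr7:134458243-134459320, from 71.2 and 87.3 CPM to 47.1 and 54.1. The change was -0.65 ± 0.10 (adjusted p = 3.1e-06). Per kb, the mean at AKR1B1 was the highest of the 8 genes with vehicle, and with sorbitol it was 46.9 ± 4.57, below NFAT5 (69.6 ± 1.73) and SLC6A6 (52.6 ± 2.74).

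SLC5A3 fell at both intervals. At the start, chr21:34073065-34074233, H3K27ac was 27.7 and 33.5 CPM with vehicle and 14.4 and 17.3 with sorbitol, a change of -0.96 ± 0.16 (adjusted p = 1.4e-05). In the intron 810 bp from the start it was 12.9 and 12.1 CPM, then 5.08 and 4.22, a change of -1.42 ± 0.26 (adjusted p = 4.9e-05). The start interval's change lay at the 8.11 percentile of tested protein-coding promoter intervals, where AKR1B1 stood at 17.8 and SLC38A2 at 14.8.

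At SGK1 the short and the main transcript starts moved in opposite directions. The short-transcript interval had 40.0 and 36.6 CPM with vehicle and 24.8 and 26.2 with sorbitol, and fell by 0.59 ± 0.13 on the log2 scale (adjusted p = 6.1e-04). The main start had 1.77 and 2.45 CPM, then 6.16 and 4.47 (counts of 11 and 15, then 57 and 36), a rise of 1.33 ± 0.39 (adjusted p = 0.011). An intron interval 21685 bp inside the gene rose from counts of 6 and 1 to 22 and 18 (1.99 ± 0.65, adjusted p = 0.023). The difference between starts of 1 gene was not tested as such. The other 5 SGK1 intervals were not called, and the main start stayed weaker than the short-transcript interval in every library.

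NFAT5 itself was not called. Its single interval, chr16:69565443-69567148, lies over the start and a coding exon of a 139.6 kb gene and had 106 and 117 H3K27ac CPM with vehicle and 117 and 121 with sorbitol. The groups overlap, and the change was 0.09 ± 0.07 (adjusted p = 0.39). The taurine transporter SLC6A6 was likewise not called at its start, chr3:14402151-14403904, with 83.2 and 82.7 CPM, then 88.9 and 95.7 (0.15 ± 0.08, adjusted p = 0.17). These readings lean on the scaling: with total-count scaling the values were 0.24 at NFAT5 and 0.30 at SLC6A6, and with GC-corrected offsets 0.35 and 0.34, called in each case, while TMM on the weakest 25% of tested intervals gave -0.25 and -0.19.

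Along SLC6A6 most intervals had more H3K27ac with sorbitol under TMM scaling. In 8 of its 9 intervals both sorbitol libraries lay above both vehicle libraries, where 31.5% of all tested H3K27ac intervals did so. TMM on the weakest 25% of tested intervals moved the median H3K27ac change of all tested intervals from 0.02 to -0.32. Under it the change at the SLC6A6 start turned negative, as given above. Over the genome the weakest 25% of tested intervals had a median change of 0.36, and the part of strength here was not tested. Summed over the 8 intervals outside the start, H3K27ac was 46.9 and 37.3 CPM with vehicle and 68.1 and 62.0 with sorbitol. Called rises were at a coding exon, chr3:14468090-14468667 (1.61 and 1.14 CPM, then 4.00 and 3.11, change 1.36 ± 0.47, adjusted p = 0.032), and in an intron, chr3:14452243-14453101 (13.4 and 9.48 CPM, then 18.9 and 17.3, change 0.66 ± 0.20, adjusted p = 0.012). A further intron interval, chr3:14439704-14440283, had an adjusted p of 0.0495 with a change of 0.74 ± 0.28. The 9 intervals share the libraries and neighbour one another, so they are not independent of each other.

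**Figure D2:**
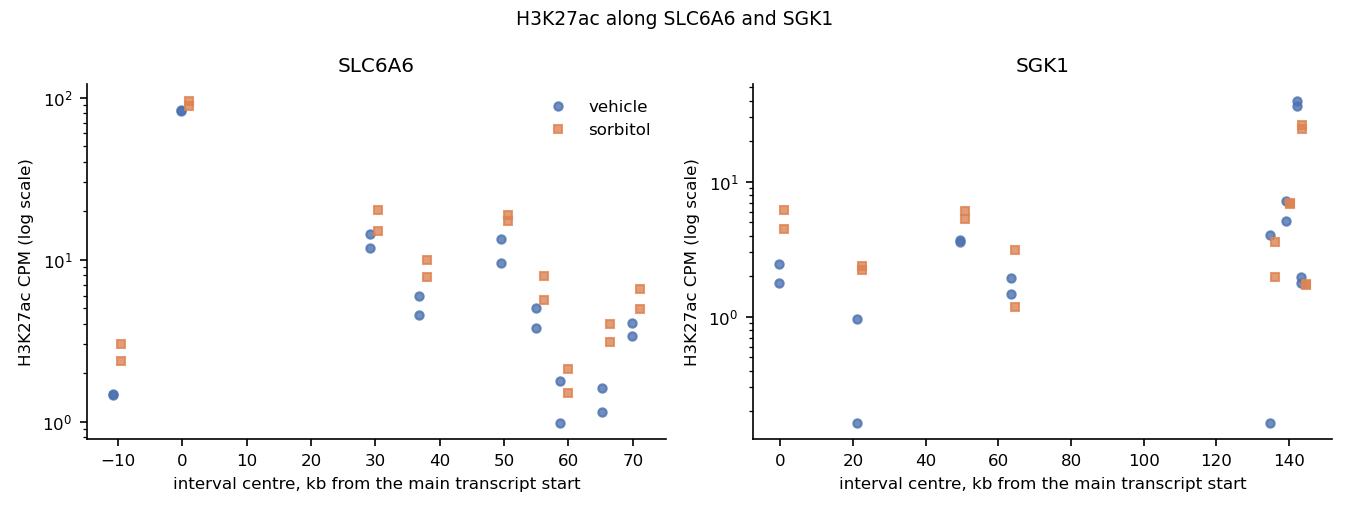
H3K27ac CPM (y axis, log scale) in each library against the distance in kb of an interval's centre from the main transcript start (x axis) for SLC6A6 (9 intervals) and SGK1 (8 intervals), vehicle points drawn slightly left and sorbitol slightly right. Sorbitol lies above vehicle along SLC6A6 in 8 of 9 intervals, while at SGK1 it lies above at the main start and below at the short-transcript interval.

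The betaine transporter SLC6A12 had little H3K27ac. An interval past the downstream end of the gene, chr12:188833-189522, fell from 7.90 and 9.32 CPM to 4.43 and 4.85 (-0.89 ± 0.28, adjusted p = 0.019). It lies 24635 bp from the main start and 9532 bp from the nearest transcript start of SLC6A12. An interval within the gene, over the start of another of its transcripts, had 12.2 and 14.9 CPM, then 9.61 and 8.57, with an adjusted p of 0.052. The AKR1B1 intron interval, chr7:134447072-134447271, rose from counts of 8 and 1 to 22 and 30 (2.03 ± 0.61, adjusted p = 0.013), which is a small number of reads. AQP1 upstream had counts of 4 and 12, then 22 and 22, and was not called (0.96 ± 0.54, adjusted p = 0.20).

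The falls and the rises differed in how well they held. The 5 falls at SLC38A2, AKR1B1, both SLC5A3 intervals and SGK1 were also the 5 calls of DESeq2, which called no rise, and they passed after leaving out any 1 H3K27ac library. A single fit on all 16 libraries, with 1 estimate of the spread for all targets, called 2 of them, at the starts of SLC38A2 and SLC5A3. The number called was 12, 6, 7 and 8 without vehicle 1, vehicle 2, sorbitol 1 and sorbitol 2, and 1 of the 6 rises, at the SGK1 main start, passed without vehicle 2. Strength moved with the direction across the genome: the median H3K27ac change was 0.36, 0.16, -0.05 and -0.16 in 4 equal classes of tested intervals from the weakest to the strongest, and its part in the members' values was not tested.

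**Figure D3:**
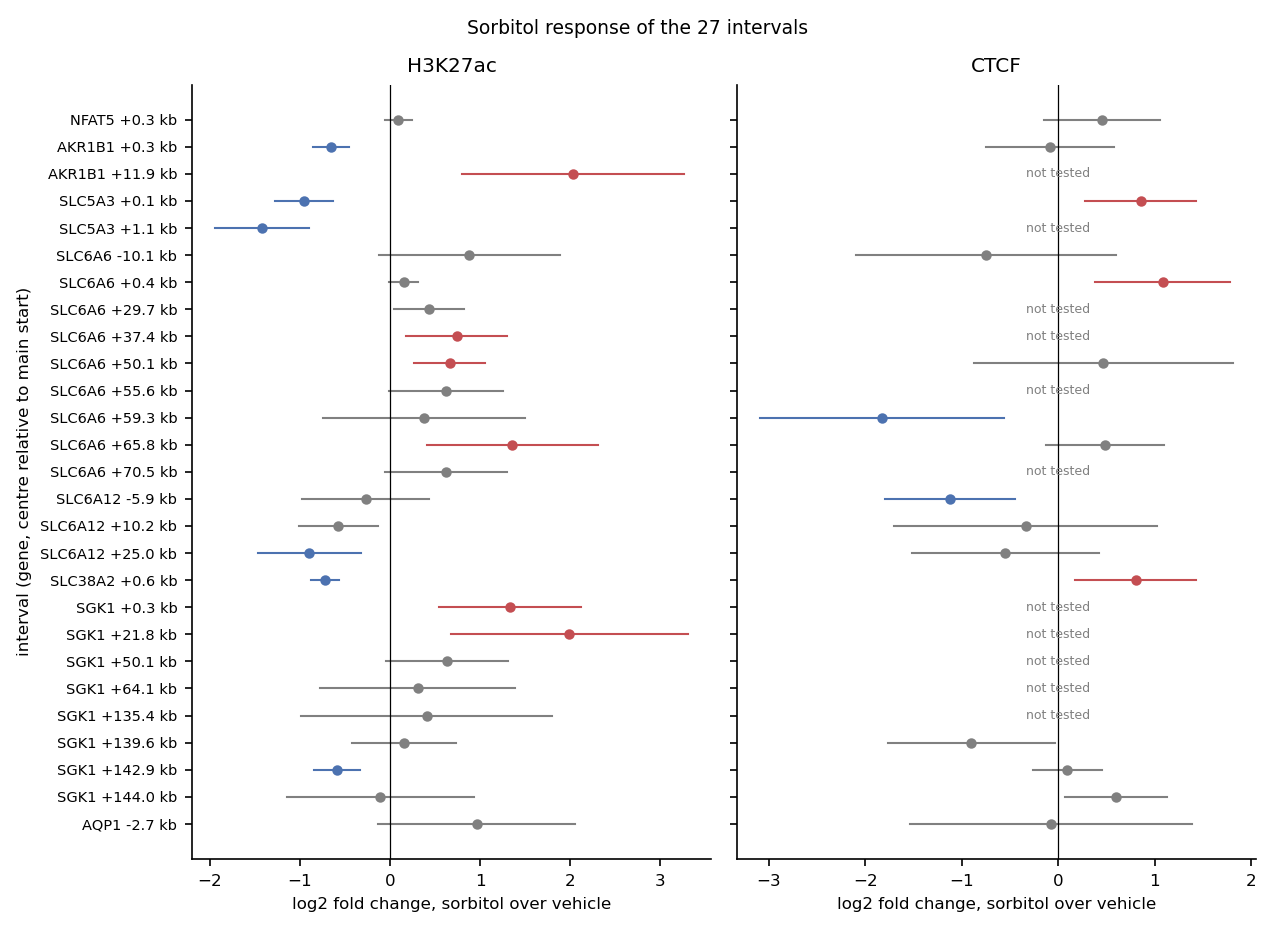
Log2 fold change of sorbitol over vehicle (x axis) with its 95% confidence interval for each of the 27 intervals (y axis, gene and kb from the main start to the interval centre), for H3K27ac and CTCF. Red is called higher, blue called lower, grey not called, and 11 intervals had too few CTCF counts to be tested. The AKR1B1, SLC5A3, SLC38A2 and SGK1 promoter intervals are blue for H3K27ac, and 3 promoter intervals are red for CTCF.

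For CTCF, 16 of the 27 intervals passed the count filter and 5 were called, 3 higher and 2 lower. That share is below the 40.2% of all 39261 tested intervals called for CTCF (19.5% higher, 20.7% lower), so the count says nothing particular about these genes. All 3 rises were at start intervals, and 31.4% of tested protein-coding promoter intervals rose. SLC6A6 went from 6.52 and 9.70 CPM to 19.1 and 14.7 (1.09 ± 0.34, adjusted p = 0.014). SLC5A3 had 10.9 and 18.2 CPM, then 25.9 and 25.5 (0.85 ± 0.28, adjusted p = 0.018). SLC38A2 had 12.6 and 9.70 CPM, then 24.3 and 15.2 (0.80 ± 0.30, adjusted p = 0.039). Among protein-coding promoter intervals these changes stood at the 76.6, 66.6 and 64.2 percentile.

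The rises at promoters depended on how libraries were scaled. With total-count scaling, where the mitochondrial reads weigh in full, the values were 0.11 at SLC6A6, -0.12 at SLC5A3 and -0.18 at SLC38A2, and none was called. Under it 7 of the 16 were called, all lower, beside 59.0% of all tested intervals. With GC-corrected offsets they were 0.47, -0.55 and 0.30, also not called, while 31.2% of all tested intervals were. Base composition and CTCF change moved together over the genome: the median change was -0.94 in intervals under 50% GC and 0.87 in those of 70% or more. The GC content of the 3 start intervals was 65.1%, 79.6% and 63.2%, and its part in the rises was not tested. None of the 5 calls was made when vehicle library 1 was left out, and 3, 2 and 5 intervals were called without vehicle 2, sorbitol 1 and sorbitol 2.

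The bases just upstream of the SLC5A3 and SLC38A2 starts are printed because they show the base composition. With TMM scaling the CTCF and H3K27ac responses also differed at these start intervals, as given below. With total-count scaling neither difference was called. GGGCGG, the core bound by SP factors, and its reverse complement are in capitals, overlapping matches included. It occurred 9 times in 221 bases at SLC5A3 (86.9% GC) and 4 times in 250 bases at SLC38A2 (73.6% GC). At least 1 match was present in 45.0% of the RefSeq promoter windows. Over whole intervals, which vary in width, the share was 78.0% of protein-coding promoter intervals and 33.4% of all intervals.
SLC5A3 upstream, chr21:34073328-34073548, plus strand: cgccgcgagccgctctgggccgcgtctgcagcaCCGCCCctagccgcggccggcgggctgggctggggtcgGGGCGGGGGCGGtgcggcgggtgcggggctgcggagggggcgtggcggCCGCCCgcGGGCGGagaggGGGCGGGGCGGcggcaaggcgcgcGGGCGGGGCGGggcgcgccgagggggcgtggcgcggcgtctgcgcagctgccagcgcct
SLC38A2 upstream, chr12:46372774-46373023, minus strand: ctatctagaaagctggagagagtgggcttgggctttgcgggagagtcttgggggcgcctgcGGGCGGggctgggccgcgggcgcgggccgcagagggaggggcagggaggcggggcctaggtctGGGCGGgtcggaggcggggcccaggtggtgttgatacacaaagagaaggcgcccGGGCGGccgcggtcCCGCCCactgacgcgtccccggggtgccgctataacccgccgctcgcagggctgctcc

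Falls in CTCF were at an interval upstream of SLC6A12 and in an intron of SLC6A6. The first, chr12:219774-220382, had 26.4 and 16.8 CPM with vehicle and 7.24 and 12.8 with sorbitol (-1.12 ± 0.33, adjusted p = 0.0094). The second, chr3:14461677-14462138, had 6.52 and 6.15 CPM, then 2.07 and 1.47, from counts of 42 and 26 down to 4 and 3 (-1.83 ± 0.61, adjusted p = 0.021). Both kept their direction under every alternative tried, and both stayed called with total-count scaling and with GC-corrected offsets. Neither was called without vehicle library 1. For neither did the interval hold the 14-letter CTCF consensus with at most 1 mismatch, which 18.4% of all intervals did. Their best matches had 2 mismatches, and matches as good occurred in 60.4% (SLC6A12) and 58.0% (SLC6A6) of intervals of like width. These best matches are in capitals below, beside an interval that held the consensus exactly.
SLC6A12 upstream, chr12:220028-220191, minus strand: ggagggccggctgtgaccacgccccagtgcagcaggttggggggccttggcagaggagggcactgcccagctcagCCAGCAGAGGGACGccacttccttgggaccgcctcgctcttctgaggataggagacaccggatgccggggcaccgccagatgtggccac
SLC6A6 intron, chr3:14462034-14462138, plus strand: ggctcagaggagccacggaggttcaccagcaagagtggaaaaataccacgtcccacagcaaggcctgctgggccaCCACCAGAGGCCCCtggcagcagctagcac
SGK1, exact match, chr6:134174079-134174172, plus strand: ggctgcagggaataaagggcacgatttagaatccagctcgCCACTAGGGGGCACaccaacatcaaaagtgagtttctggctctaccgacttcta

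That SGK1 interval, chr6:134173882-134174375, lies at a short-transcript start within a coding exon, is 39.9% GC and had almost no H3K27ac (1.73 to 1.96 CPM). Exact matches occurred in 9.56% of 9513 intervals of like width. Its CTCF was 14.4 and 15.8 CPM with vehicle and 22.8 and 23.1 with sorbitol, groups that do not overlap (0.60 ± 0.26, adjusted p = 0.064). It was 1.53 and called with GC-corrected offsets and -0.38 with total-count scaling. A further match, with 1 mismatch, lies in the SLC6A6 interval chr3:14468090-14468667, where CTCF was 12.7 and 13.7 CPM, then 22.8 and 14.2 (0.48 ± 0.29, adjusted p = 0.20).
SLC6A6, chr3:14468238-14468267, minus strand: tggcttacACACTAGGTGGCAGtgcccacc

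At the short-transcript interval of SGK1, chr6:134174563-134175798, CTCF was not called. It was 39.3 and 41.4 CPM with vehicle and 41.9 and 44.2 with sorbitol (0.10 ± 0.17, adjusted p = 0.68). It was called lower with total-count scaling (-0.88) and with GC-corrected offsets (-0.65). NFAT5 had 11.8 and 13.7 CTCF CPM, then 16.6 and 18.2 (0.45 ± 0.29, adjusted p = 0.22). AKR1B1 had 12.9 and 11.6, then 12.4 and 10.8 (-0.08 ± 0.32, adjusted p = 0.85, and -1.07 and called with total-count scaling).

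The CTCF response was set against the H3K27ac response in a model with an interaction of target and treatment. The responses differed at 5 of 27 intervals, beside 21.6% of all 66550 tested, and the median difference over all was -0.27. At the SLC5A3 start CTCF exceeded H3K27ac by 1.46 ± 0.31 on the log2 scale (adjusted p = 2.2e-04), and at the SLC38A2 start by 1.15 ± 0.27 (adjusted p = 9.1e-04). With total-count scaling these were 0.70 and 0.38, with adjusted p of 0.086 and 0.31. The CTCF response was below that of H3K27ac at the SLC6A6 intron interval with the CTCF fall, by a difference of -2.57 ± 0.89 (adjusted p = 0.028).

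No RAD21 change was called at the members. edgeR tested 9 of 27 intervals and called 0, where 4.79% of 17011 tested intervals were called; none reached an unadjusted p under 0.05 and DESeq2 called 0. Few reads stood behind these values, between 2 and 92 in a library for the tested intervals. At NFAT5 RAD21 was 20.1 and 39.0 CPM, then 25.6 and 15.9, and the 95% interval of the change ran from -1.39 to 0.51. At the short-transcript interval of SGK1 it was 33.6 and 35.4 CPM, then 42.4 and 27.3, with an interval from -0.70 to 0.75. The lowest fitted value was at an SGK1 intron, chr6:134178326-134178633, with 7.30 and 11.5 CPM, then 1.97 and 4.54 (-1.49 ± 0.80, adjusted p = 0.28), where CTCF was 11.3 and 8.28 CPM, then 5.69 and 4.91 (-0.90 ± 0.42, adjusted p = 0.089). Sorbitol lay below vehicle in both targets there. At 8 of the 9 tested intervals the 95% interval included a 2-fold change in at least 1 direction.

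No eGFP-YAP change was called either. edgeR tested 11 of 27 intervals and called 0, where 6.83% of 22765 tested intervals were called, with 0 at an unadjusted p under 0.05 and 0 by DESeq2. NFAT5 had 22.5 and 23.5 CPM with vehicle and 27.4 and 18.6 with sorbitol, with a 95% interval of the change from -0.51 to 0.57. SLC38A2 had 20.8 and 19.3 CPM, then 20.3 and 27.1, with an interval from -0.34 to 0.76. These intervals leave room for changes under 2-fold in either direction, and at AKR1B1 (-1.27 to 0.86) for more. With total-count scaling, 6 of the 11 were called lower, beside 65.0% of all tested intervals under that scaling. The eGFP-YAP response differed from that of H3K27ac at 0 of 25 tested intervals (6.27% of all 52935). With total-count scaling it differed at 11 of 25, all lower, beside 34.6% of all.

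Genes around the 8 members were read at their start intervals, in 4 lists. The NFAT5 list holds 17 genes: regulators and partners, the relatives NFATC1 to NFATC4 and the calcineurin gene PPP3CA. H3K27ac fell at 8 of them: CDK5, FYN, HSP90AA1, NFATC1, NFATC3, NFATC4, PARP1 and PPP3CA. NFATC2 was not called. H3K27ac rose at 2, AKAP13 and MAPK14 (p38 alpha, a kinase upstream of NFAT5). The largest falls were at calcineurin-regulated relatives of NFAT5: NFATC1 had 5.80 and 6.05 CPM, then 2.05 and 1.37 (-1.77 ± 0.39), and NFATC4 had 97.5 and 99.2 CPM, then 51.4 and 40.1 (-1.10 ± 0.10). Of 12 tested genes of osmolyte metabolism and transport, 7 fell and 1, SLC36A1, rose. SLC7A5, a large neutral amino acid transporter, fell from 63.7 and 68.8 CPM to 29.6 and 28.2 (-1.19 ± 0.11), and the creatine transporter SLC6A8 fell by 1.14 ± 0.12 on the log2 scale. List medians were -0.20 and -0.55, beside -0.15 over protein-coding promoter intervals, of which 30.1% fell and 11.0% rose. The NFAT5 list gave 4 higher and 4 lower with total-count scaling, with or without dominant intervals, and 2 and 4 with GC-corrected offsets. The osmolyte list gave 1 and 7 with total-count scaling and 1 and 6 with GC-corrected offsets. With TMM on the weakest 25% of tested intervals the 2 lists gave 0 and 13, and 1 and 11. AKAP13 (0.01) and MAPK14 (-0.03) were then not called.

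Of 5 other tonicity-responsive genes tested, H3K27ac fell at HSPA1A and HSPA1B, near-identical HSP70 genes whose reads cannot be assigned with certainty, and rose at none. Of 9 tested relatives of SGK1 and the aquaporins, 3 fell, PDPK1, OXSR1 and TSC22D3, and AQP4 rose from 1.77 and 1.96 CPM to 4.75 and 3.98 (1.22 ± 0.41), which was not called with that TMM (0.88) or with GC-corrected offsets (1.07). For CTCF the NFAT5 list gave 7 higher and 2 lower of 14 tested genes, and the osmolyte list 4 and 1 of 12. Tonicity-responsive genes gave 3 and 0 of 5, and SGK1 and aquaporin relatives 2 and 1 of 8. The 1 fall among these relatives, at AQP7, was the largest CTCF change in the 4 lists. AQP7 went from 48.0 and 44.2 CPM with vehicle to 6.73 and 6.38 with sorbitol (-2.81 ± 0.26). The medians of the 4 lists in this order were 0.65, 0.78, 1.06 and -0.26, beside 0.53 over protein-coding promoter intervals. Of tested protein-coding promoter intervals 31.4% were called higher and 7.36% lower for CTCF. The rises in the lists carry the scaling and GC limits given above. With GC-corrected offsets the lists gave 1 higher and 2 lower, 3 and 1, 2 and 2, and 0 and 4. With total-count scaling the lists gave 0 higher and 3 lower, 2 and 3, 2 and 2, and 0 and 5.

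SLC7A5 rose in 3 targets and fell in H3K27ac. Its start interval rose for CTCF (2.70 ± 0.19), for RAD21 from 14.6 and 15.9 CPM to 69.0 and 77.2 (2.26 ± 0.31) and for eGFP-YAP from 14.3 and 15.8 to 41.1 and 50.8 (1.60 ± 0.23). It was the only RAD21 change called in the 4 lists. Its partner subunit gene SLC3A2 fell for eGFP-YAP from 53.2 and 50.9 CPM to 16.7 and 28.8 (-1.24 ± 0.25). HSPA1A and HSPA1B rose for eGFP-YAP by 1.59 ± 0.34 and 1.01 ± 0.21, which makes 4 called eGFP-YAP changes in the 4 lists. The NFAT5, osmolyte, tonicity-responsive and SGK1 lists had 15, 12, 5 and 8 intervals tested for eGFP-YAP. Of tested protein-coding promoter intervals 3.62% were called for eGFP-YAP. With total-count scaling none of these 3 eGFP-YAP rises was called, at 0.16 for SLC7A5, 0.19 for HSPA1A and -0.41 for HSPA1B, while SLC3A2 was still called lower (-2.68). All 3 were called without dominant intervals in that scaling (1.32, 1.32 and 0.74). The CTCF and RAD21 rises at SLC7A5 stayed called with total-count scaling (1.72 and 1.67) and with GC-corrected offsets (2.05 and 2.03). The scalings of the 4 lists were chosen after seeing the data.

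**Figure D4:**
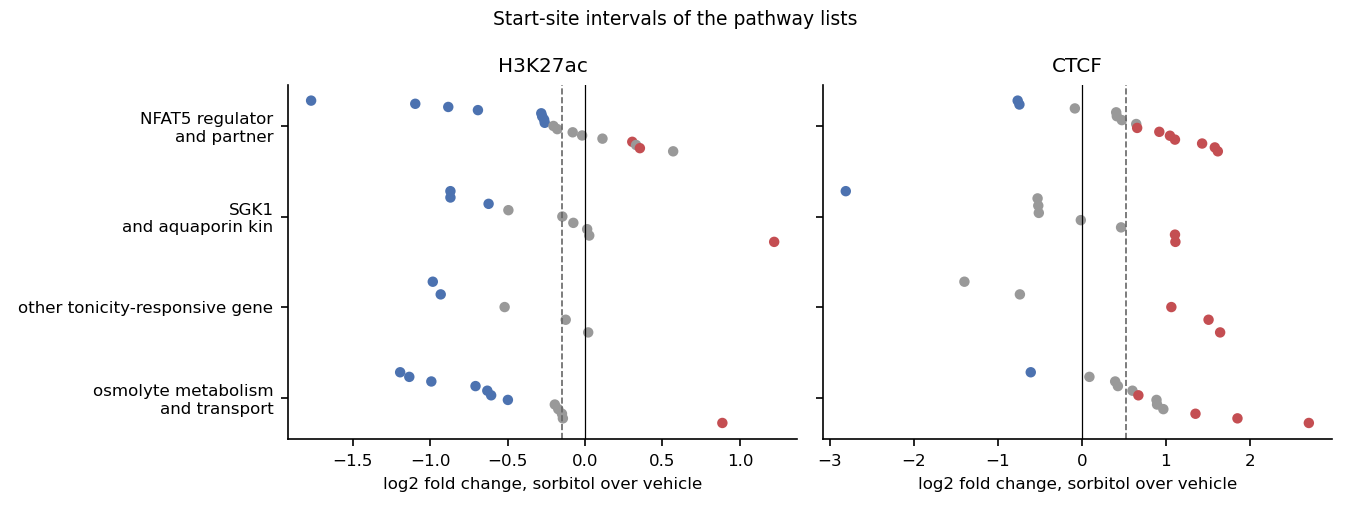
Log2 fold change of sorbitol over vehicle (x axis) at the start interval of each tested gene of the 4 lists (y axis), for H3K27ac and CTCF. Points are genes, red called higher, blue called lower and grey not called, and the dashed line is the median of tested protein-coding promoter intervals (-0.15 and 0.53). Blue points outnumber red in each list for H3K27ac, and red outnumber blue in each list for CTCF. With total-count scaling lower calls outnumber higher ones for CTCF in 3 lists and equal them in the other. In H3K27ac the NFAT5 list then has 4 of each.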

How the data were processed

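CUT&Tag counts for CTCF, RAD21, eGFP-YAP and H3K27ac were analysed in 16 libraries. The authors deposited 1 table of raw counts per interval and library, whole numbers with no scaling between libraries, per the file header; the same 74404 intervals (median width 422 bp) serve every target. The submitters' processing notes name hg38, Trim Galore, FastQC, BWA 0.7.17, SAMtools, Picard, bedtools 2.31.1 and MACS2 2.2.6 without saying what each did, and how the interval set was pooled is not given in the sources used here. All intervals lay within hg38 chromosome lengths; coordinates are hg38, 1-based. Columns were matched to samples by target, treatment and replicate number, and none was left unmatched.

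Each target was fitted over its whole table with edgeR 4.0.16 in R 4.3.3 (robust quasi-likelihood, two-sided, TMM scaling, filterByExpr with a minimum of 10 counts), on 2 vehicle against 2 sorbitol libraries. Standard errors were derived from the F statistic. Differences between targets are interaction terms over 8 libraries. The fit was also run on counts simulated from its own estimates of the spread. Such a run checks the code and cannot show which scaling is right.

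Named intervals are each gene's start or nearest interval and, per target, the 3 largest called rises and falls. A list gene could be named when among the 2 largest called changes of its list in a target. Not every such gene is named. Other intervals, list genes in small counts, the tonicity element, the GGGCGG motif and the sequences were chosen after their values were seen. The 8 genes and the 4 lists were chosen with earlier results of these data known. GENCODE release 44 gave starts (MANE Select) and annotation; RefSeq windows gave promoter motif shares. Alternatives were DESeq2 1.42.0, other scalings and filters, GC-corrected offsets (lowess span 0.3), a replicate block, and leaving out each library.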

Additional observations from a re-analysis of the deposited data

Results flagged for a closer look

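The responses of CTCF and H3K27ac to sorbitol differed, by the edgeR interaction test, at 5 intervals. The log2 difference, CTCF minus H3K27ac, was 1.46 ± 0.31 at the SLC5A3 start (adjusted p = 2.2e-04) and 2.24 ± 0.77 in the SLC5A3 intron 810 bp from it (adjusted p = 0.026). The latter rests on CTCF counts of 7 and 7 with vehicle and 4 and 8 with sorbitol. At the SLC38A2 start the difference was 1.15 ± 0.27 (adjusted p = 9.1e-04). In the SLC6A6 intron interval chr3:14461677-14462138 it was -2.57 ± 0.89 (adjusted p = 0.028), with CTCF counts of 42 and 26, then 4 and 3. In the SGK1 intron interval chr6:134178326-134178633 it was -1.43 ± 0.53 (adjusted p = 0.044). Over all tested intervals 21.6% differed. With total-count scaling the 5 values were 0.70, 1.48, 0.38, -3.33 and -2.20, and the first 3 were no longer called.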

How the results depend on the processing

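The 5 H3K27ac falls at SLC38A2, AKR1B1, SLC5A3 and SGK1 were called under every alternative but the single fit on all 16 libraries, which called 2. The H3K27ac count of 12 became 5 with DESeq2 and 2 with that fit, and ran from 6 to 12 when 1 library was left out. The CTCF count of 5 became 2 with DESeq2, 3 with total-count scaling without dominant intervals (388 intervals that are mitochondrial, on unplaced contigs, in the YAP1 gene or above 0.1% of a library), 2 with a mean of at least 50 counts and 2 with the single fit, and ran from 0 to 5 when 1 library was left out. It stayed 5 with GC-corrected offsets, but as 1 higher and 4 lower, and was 7, all higher, with TMM on the weakest 25% of tested intervals. The eGFP-YAP count of 0 became 6 and the count of eGFP-YAP responses differing from H3K27ac became 11 with total-count scaling; the latter ran from 0 to 1 when 1 library was left out. The count of CTCF responses differing from H3K27ac was 5, and ran from 2 to 7 when 1 library was left out; it was 6 with total-count scaling, all with the CTCF response lower. RAD21 stayed at 0 in each alternative run. The cause of these differences was not tested. Total-count scaling moved the median log2 fold change of all tested intervals to -1.04 for CTCF, -0.60 for RAD21, -1.46 for eGFP-YAP and 0.17 for H3K27ac.

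Signs of log2 fold changes turned as follows, at start intervals unless said, with SGK1 meaning its short-transcript interval. With total-count scaling, CTCF was -0.52 at NFAT5, -0.12 at SLC5A3, -0.18 at SLC38A2, -0.88 at SGK1 and -0.38 at the SGK1 interval of the exact CTCF match, RAD21 was -0.22 at SLC6A6 and -0.57 at SGK1, and eGFP-YAP was -1.39 at NFAT5, -0.90 at SLC5A3, -1.19 at SLC6A6, -1.22 at SLC38A2, -0.90 at the interval nearest SLC6A12 and -1.21 at SGK1. Without dominant intervals in that scaling, CTCF was -0.17 and RAD21 -0.026 at SGK1, and eGFP-YAP -0.24 at NFAT5, -0.042 at SLC6A6, -0.061 at SLC38A2 and -0.072 at SGK1. H3K27ac at the exact-match interval was 0.037 and 0.035 in these scalings and 0.043 in the single fit. With TMM on the weakest 25% of tested intervals, CTCF was 0.28 at AKR1B1 and 0.28 upstream of AQP1, RAD21 0.095 at NFAT5, 0.46 at SLC38A2 and 0.15 near SLC6A12, eGFP-YAP -0.032 at NFAT5, and H3K27ac -0.25 at NFAT5 and -0.19 at SLC6A6. Without a count filter, CTCF was -0.10 at SGK1, and eGFP-YAP -0.37 at NFAT5, -0.17 at SLC6A6, -0.19 at SLC38A2 and -0.20 at SGK1. In the single fit, CTCF was -0.089 at SGK1, RAD21 0.041 at SLC38A2, and eGFP-YAP -0.40, -0.21, -0.24 and -0.23 at NFAT5, SLC6A6, SLC38A2 and SGK1. With a mean of at least 50 counts CTCF was -0.083 at SGK1; no RAD21 interval of the members passed that filter. With GC-corrected offsets, CTCF was -0.35 at NFAT5, -0.55 at SLC5A3 and -0.65 at SGK1, and RAD21 -0.11 at SLC5A3 and -0.25 at SGK1. With the replicate block added to them these were -0.36, -0.54, -0.65, -0.10 and -0.26.

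When 1 library was left out, the values whose sign turned ran for CTCF from -2.76 to 0.78 at AQP1 and -0.18 to 0.018 at AKR1B1. For RAD21 they ran from -0.24 to 0.41 at SGK1, -0.88 to 0.18 at NFAT5, -1.19 to 0.66 at SLC38A2 and -0.74 to 0.12 near SLC6A12. For eGFP-YAP they ran from -0.60 to 0.15 at AKR1B1, -0.40 to 0.19 at NFAT5, -0.28 to 0.38 at SGK1 and -0.053 to 0.34 at SLC38A2, and for H3K27ac from -0.72 to 0.36 near SLC6A12. A group then holds 1 library, which is assumed to vary like the other group.

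Of the list genes, eGFP-YAP at HSPA1B was -0.41 with total-count scaling and H3K27ac at MAPK14 -0.034 with TMM on the weakest 25% of tested intervals.

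Deviations of libraries with the same replicate number correlated at -0.0086 for CTCF, -0.0048 for RAD21, 0.0054 for eGFP-YAP and -0.0054 for H3K27ac. Such values do not exclude a pairing, because counting noise at weak intervals lowers these correlations. With the replicate block, 5 CTCF, 0 RAD21, 0 eGFP-YAP and 11 H3K27ac intervals were called, and 0 and 4 differences from H3K27ac for eGFP-YAP and CTCF. Depth limits RAD21 most, with 9 of 27 intervals testable.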
